A study of Mus musculus with 12 samples.

Results

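Potassium channel subunits were taken as every gene whose symbol on the array's annotation begins with Kcn and that has a probe set of its own. There were 84 such genes among the 18194 genes with a single-gene probe set, and each was read by the probe set with the highest mean over the 12 arrays. Of the 84, 81 encode channel subunits or their auxiliary proteins, and 3 are non-coding RNAs that carry a channel gene's name (Kcnq1ot1, Kcnmb4os1 and Kcnmb4os2). Another 14 mouse genes with such symbols in RefSeq were not analysed here. Gastrocnemius, the large calf muscle, was profiled on Affymetrix arrays in male mice of generation 37 of lines bred for high voluntary wheel running, at a mean age of 84 days (79 to 86). The mini-muscle group held 6 mice of line 3, whose hindlimb muscles are small by inheritance, with left and right muscle combined for each mouse. The regular-muscle group held 6 mice of line 8, with the muscle of 1 limb each. Phenotype, line and pooling divide the arrays in the same way and cannot be told apart, and all mice came from selected lines, so unselected controls are not part of the comparison.

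Potassium channels let potassium leave the cell, which ends the action potential and holds the membrane near its resting voltage. The voltage-gated families open on depolarisation, inward rectifiers (Kcnj) set the resting conductance, two-pore domain channels (Kcnk) carry background current, and the calcium-activated families (Kcnm, Kcnn) link the membrane to intracellular calcium. In skeletal muscle they share the repolarising work with chloride channels, and an ATP-sensitive channel responds to metabolic state. Auxiliary subunits (Kcnab, Kcne, Kcnip, Kcnmb) change the gating or the traffic of these pores.

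Most members gave weak signals in this muscle. Genes whose mean log2 intensity over the 12 arrays was below 8.56, the median over all genes, were left out of the test as dim, and 16 of the 84 members (19.0%) were above it, against 9097 of the 18194 genes in all. The tested members were 6 of 31 voltage-gated subunits, 4 of 15 inward rectifiers, 2 of 12 two-pore domain channels, 2 of 8 calcium- or sodium-activated channels, 1 of 15 auxiliary subunits and 1 of the 3 non-coding RNAs. The filter favours a gene that is bright in either group, so the 16 are not a sample of all members.

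**Figure D1:**
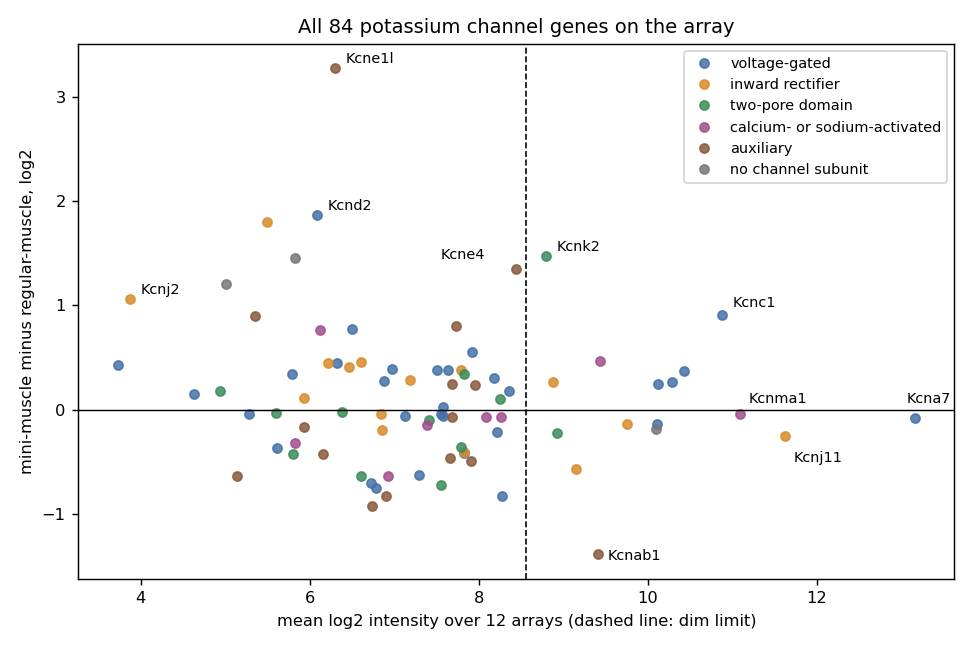
Mean log2 intensity over the 12 arrays (x axis) against the difference mini-muscle minus regular-muscle in log2 units (y axis) for each of the 84 genes, coloured by channel family. The dashed line is the dim limit of 8.56. The 68 genes to its left spread between -0.93 and 3.28, and the 16 to its right between -1.39 and 1.47.

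4 of the 16 tested members differed between the groups (limma, Benjamini-Hochberg adjusted p under 0.05 over all 9097 genes tested). Kcnc1, Kcnk2 and Kcnn1 rose in mini-muscle and Kcnab1 fell. Of all genes tested 26.7% were called, so that 4 of 16 is close to the background. Without the dim filter 4 of the 84 members (4.76%) were called, Kcnc1, Kcnk2, Kcnab1 and the dim Kcne1l, beside 12.1% of all 18194 genes. By direction, 14.9% of all genes were called higher and 11.8% lower. The groups did not overlap for 4 of the 16 tested members, beside 13.0% of all genes tested. These 4 were the called Kcnc1, Kcnk2, Kcnn1 and Kcnab1. Call and overlap were read from the same values, so the lack of overlap is not separate evidence for the calls. The median difference was -0.06 over the 16 members and 0.03 over all genes tested. All differences below are in log2 units, positive where mini-muscle was higher, from 6 arrays a group, and errors are standard deviations (SD) of arrays or standard errors (SE) of the fit.

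**Figure D2:**
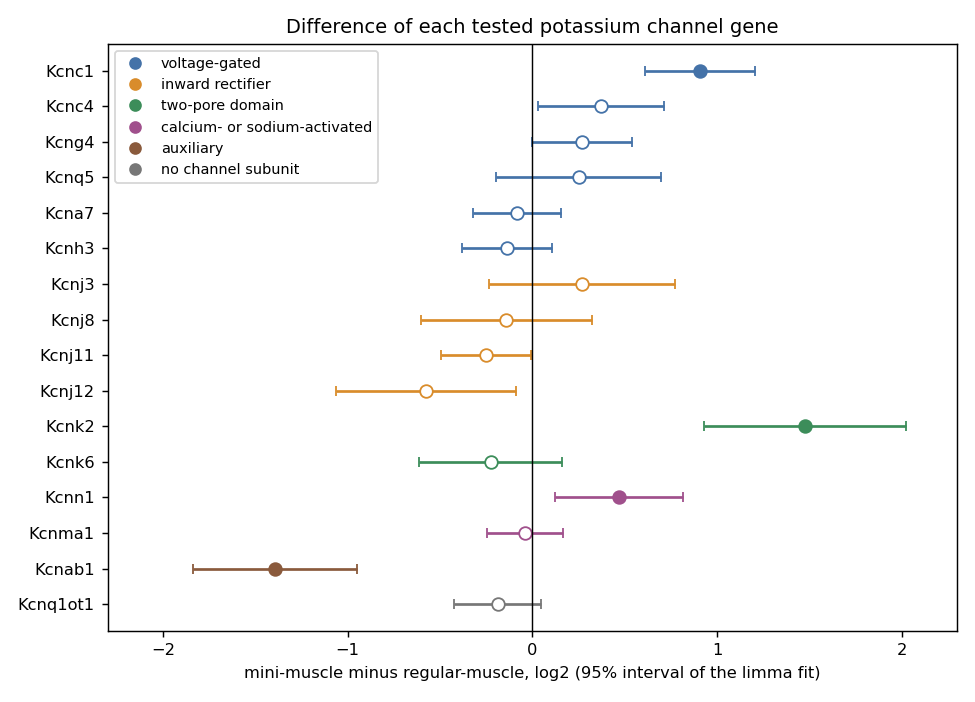
Difference mini-muscle minus regular-muscle (x axis, log2) of the 16 tested members, grouped by family, with 95% intervals of the limma fit. Filled points are the 4 genes with an adjusted p under 0.05: Kcnc1, Kcnk2 and Kcnn1 lie right of 0 and Kcnab1 lies left of it, at -1.39.

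The windows just upstream of the RefSeq starts of these 4 genes are shown because they are the members whose transcripts differed. Each is the 250 bases before the first start listed for the gene in RefSeq (build GRCm38.p6), 5′ to 3′ on the gene's strand. Capitals mark CANNTG, the E-box letters read by myogenic and other basic helix-loop-helix factors, a pattern that is the same on both strands.
Kcnc1 (chr7:46396218-46396467, plus strand): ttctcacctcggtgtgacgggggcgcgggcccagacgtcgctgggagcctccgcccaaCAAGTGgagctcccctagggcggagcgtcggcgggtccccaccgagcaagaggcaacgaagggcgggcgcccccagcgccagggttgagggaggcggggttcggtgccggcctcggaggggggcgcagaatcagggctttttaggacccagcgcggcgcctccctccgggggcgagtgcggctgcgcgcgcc
Kcnk2 (chr1:189402274-189402523, minus strand): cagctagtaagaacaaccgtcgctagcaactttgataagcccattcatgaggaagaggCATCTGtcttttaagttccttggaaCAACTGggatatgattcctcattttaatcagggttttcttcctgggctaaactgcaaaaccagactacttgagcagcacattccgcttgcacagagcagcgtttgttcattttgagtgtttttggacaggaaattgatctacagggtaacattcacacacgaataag
Kcnn1 (chr8:70863259-70863508, minus strand): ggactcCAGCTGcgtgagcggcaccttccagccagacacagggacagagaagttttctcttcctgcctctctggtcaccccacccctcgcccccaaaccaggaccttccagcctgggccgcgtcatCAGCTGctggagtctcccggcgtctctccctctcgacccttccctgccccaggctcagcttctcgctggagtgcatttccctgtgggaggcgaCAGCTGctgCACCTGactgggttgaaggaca
Kcnab1 (chr3:64948962-64949211, plus strand): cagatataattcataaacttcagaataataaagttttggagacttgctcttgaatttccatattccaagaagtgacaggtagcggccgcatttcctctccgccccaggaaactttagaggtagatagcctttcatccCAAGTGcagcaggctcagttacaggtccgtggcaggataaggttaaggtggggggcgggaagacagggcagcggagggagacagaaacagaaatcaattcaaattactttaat

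The windows differ in base composition and in their number of E-box letters. The Kcnc1 window is 74.4% G and C with 1 match, that of Kcnk2 42.4% with 2, that of Kcnab1 45.2% with 1, and that of Kcnn1 63.6% with 4, of which 3 read CAGCTG. At least 1 match occurs in 66.2% of the 32851 windows of the RefSeq table and in 67.4% of the 89 windows found for 64 of the members. 4 or more occur in 3.84% of all windows, and the second window of Kcnn1 (chr8:70857009-70857258) also has 4, 1 of them CAGCTG, which 13.0% of all windows hold. Kcnk2 has 4 windows in the table and Kcnab1 has 3, and the array does not say which start the measured transcripts used. A match is a run of letters and no evidence of binding.

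Among the voltage-gated channels, Kcnc1 was the member that passed the test. It encodes a pore subunit that opens at strong depolarisation and closes fast, known from neurons that fire at high rates. Its log2 intensity ran from 10.89 to 11.77 (median 11.40) in mini-muscle and from 10.07 to 10.67 (median 10.45) in regular muscle, so every mini-muscle array lay above every regular-muscle array. The gene was 1.87-fold higher (log2 0.91, SE 0.14, 95% interval 0.61 to 1.20, limma adjusted p = 1.1e-04). The probe sets of Kcnc1 disagreed in size: 2 dimmer ones above the limit gave 0.33 (95% interval -0.35 to 1.01) and 0.26 (-0.33 to 0.86), and another, below it, gave 0.15. With the mean of all 4 probe sets the difference was 0.41 and the call was lost (adjusted p = 0.23).

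Kcnc4, a relative of Kcnc1 known to pair with Kcne3 in skeletal muscle, averaged 10.61 ± 0.28 on the mini-muscle arrays and 10.24 ± 0.35 (SD) on the others, and the groups overlapped. The difference of 0.37 (95% interval 0.03 to 0.71) did not pass (limma adjusted p = 0.10), and it passed without regular-muscle replicate 2 (0.46, adjusted p = 0.047). Its probe set belongs to a class that can match transcripts of several genes. The second one, unique to the gene and dimmer, gave 0.996 (95% interval 0.27 to 1.72, adjusted p = 0.087 over all 34958 single-gene probe sets, of which 8.92% were called).

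Kcna7, a voltage-gated subunit known mainly from skeletal muscle and heart, measured 12.80 to 13.34 in mini-muscle and 12.71 to 13.40 in regular muscle. The ranges overlapped almost fully, and the difference was -0.08 (95% interval -0.32 to 0.15, limma adjusted p = 0.64). Kcng4, a subunit that is silent alone and modifies the channels it joins, differed by 0.27 (95% interval -0.0021 to 0.54, adjusted p = 0.14). Without mini-muscle replicate 1 it passed, at 0.36 (adjusted p = 0.031). Kcnq5, of the family that carries the slow M-type current, differed by 0.25 (95% interval -0.20 to 0.70, adjusted p = 0.43), while a dimmer probe set below the limit was higher by 1.06 (adjusted p = 0.036 over all single-gene probe sets) and the other gave -0.18. Kcnh3, of the ether-à-go-go family, differed by -0.14 (adjusted p = 0.42).

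**Figure D3:**
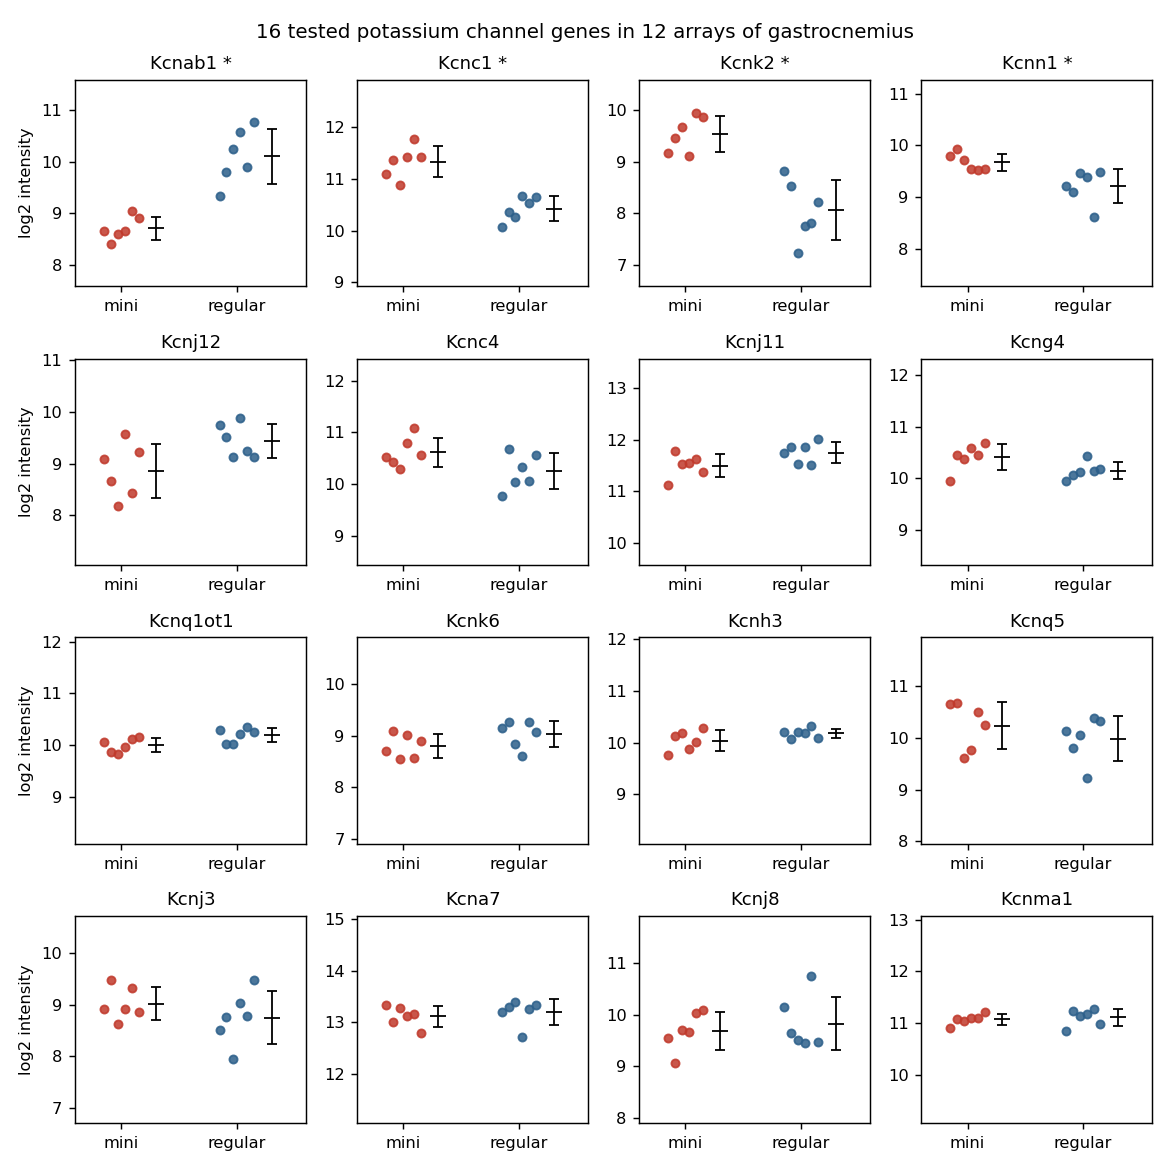
Log2 intensity (y axis, a span of 4 units in each panel) of the 16 tested members on each array, mini-muscle in red and regular muscle in blue, with the mean and SD of each group in black. Panels are in the order of the adjusted p and an asterisk marks those under 0.05. In the first 4 panels (Kcnab1, Kcnc1, Kcnk2 and Kcnn1) the groups do not overlap.

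None of the 4 tested inward rectifiers was called, and 3 of the 4 differences were negative. Kcnj11, the pore of the ATP-sensitive channel that opens when the energy state falls, measured 11.12 to 11.79 (median 11.54) in mini-muscle and 11.51 to 12.02 (median 11.79) in regular muscle. The groups overlapped, and the difference of -0.25 (95% interval -0.50 to -0.01) did not pass after adjustment (limma adjusted p = 0.13). Its second probe set gave -0.22. Abcc9, the sulphonylurea receptor that completes this channel in muscle and vessels, differed by 0.12 (95% interval -0.09 to 0.33, adjusted p = 0.42). Kcnj8, the other pore subunit of such channels, known from vascular smooth muscle and pericytes, differed by -0.14 (95% interval -0.60 to 0.32) and changed sign to 0.04 without regular-muscle replicate 5, whose value was 10.74.

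Kcnj12, a strong inward rectifier of the class that holds the resting potential, spread widely in both groups. It ran from 8.18 to 9.57 in mini-muscle and from 9.12 to 9.89 in regular muscle. The difference was -0.58 (95% interval -1.06 to -0.09, limma adjusted p = 0.076), and it passed without mini-muscle replicate 4, the highest array of its group (-0.72, adjusted p = 0.028). Kcnj2, the subunit best known for this current in muscle, could not be assessed: its probe set averaged 4.41 ± 1.58 in mini-muscle and 3.35 ± 0.81 in regular muscle, far below the dim limit. Kcnj3, a pore subunit of channels opened by G proteins, differed by 0.27 (adjusted p = 0.46).

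Kcnk2 had the largest increase among the tested members. It encodes a two-pore domain channel opened by membrane stretch and by polyunsaturated fatty acids. Mini-muscle arrays measured 9.10 to 9.95 (median 9.56) and regular-muscle arrays 7.23 to 8.81 (median 8.02), with no overlap. The gene was 2.78-fold higher (log2 1.47, SE 0.26, 95% interval 0.93 to 2.02, limma adjusted p = 3.4e-04). The regular-muscle mean of 8.06 ± 0.58 lay below the dim limit, so Kcnk2 entered the test through the mini-muscle arrays, and it is read by 1 probe set. With an offset of 64 added before log2 the difference was 1.27 (adjusted p = 2.5e-04). Kcnk6, a weakly conducting member of the same class, differed by -0.23 (adjusted p = 0.41), and Kcnk5, an acid-sensitive one, was dim, with a difference of -0.02 (95% interval -1.32 to 1.27).

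Of the calcium-activated channels, Kcnn1 passed narrowly and Kcnma1 did not pass. Kcnn1 encodes a small-conductance channel that follows the spike with a slow hyperpolarisation. Its values were 9.53 to 9.93 (median 9.63) in mini-muscle and 8.60 to 9.48 (median 9.30) in regular muscle, so the groups did not overlap, though the nearest arrays were 9.53 and 9.48. It was 1.38-fold higher (log2 0.47, SE 0.16, 95% interval 0.12 to 0.81, limma adjusted p = 0.041). Its second probe set gave 0.43 (95% interval -0.08 to 0.93), with overlapping groups, and did not pass (limma adjusted p = 0.37 over all single-gene probe sets). The Kcnn1 call was lost in 8 of 12 cases without 1 array (adjusted p 0.050 to 0.094). These were mini-muscle replicate 1, 2, 3, 4 or 6, or regular-muscle replicate 1, 2 or 5. It was also lost under 6 of the other alternatives and kept under 4, and Kcnn1 was not tested with a higher dim limit. Where lost, the limma adjusted p ran from 0.060 (arrays centred on their medians) to 0.12 (without the 2 arrays of highest median intensity). Among these were the fit without the dim filter (0.091) and that over all single-gene probe sets (0.11). Regular-muscle replicate 5 gave the lowest value, and the difference was 0.35 without it.

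Kcnma1, the pore of the large-conductance channel gated by both calcium and voltage, measured 10.89 to 11.21 in mini-muscle and 10.85 to 11.28 in regular muscle. The difference was -0.04 (95% interval -0.25 to 0.16, limma adjusted p = 0.80). Its second probe set gave 0.16, and the mean of all 5 gave 0.36, with the sign turned (adjusted p = 0.38). Kcnn3, the small-conductance channel known to appear in denervated fibres, was dim at 6.51 ± 0.93 in mini-muscle and 5.74 ± 1.15 in regular muscle. Its difference of 0.77 had a 95% interval of -0.56 to 2.10. Kcnn4, the intermediate-conductance channel of blood cells and activated lymphocytes, was dim as well (-0.32, 95% interval -1.50 to 0.86). Its other probe set, also dim, had the other sign, at 1.85 (95% interval 0.18 to 3.52). That probe set did not pass over all single-gene probe sets (limma adjusted p = 0.20).

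Kcnab1 was the only tested member called lower. It encodes a cytoplasmic beta subunit that binds Kcna pores and speeds their inactivation. Mini-muscle arrays measured 8.41 to 9.04 (median 8.66) and regular-muscle arrays 9.35 to 10.77 (median 10.07), so all of the first lay below all of the second, and the spread was larger in regular muscle (SD 0.53 against 0.23). The gene was 2.63-fold lower (log2 -1.39, SE 0.21, 95% interval -1.84 to -0.95, limma adjusted p = 8.2e-05). Its second probe set, below the dim limit, gave -0.79 (95% interval -1.62 to 0.05), and the mean of both gave -1.09 (adjusted p = 0.0038). The other beta subunits, Kcnab2 and Kcnab3, were dim, with differences of -0.43 and -0.64. Their second probe sets, dimmer still, had the other sign, at 0.05 and 1.30.

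**Figure D4:**
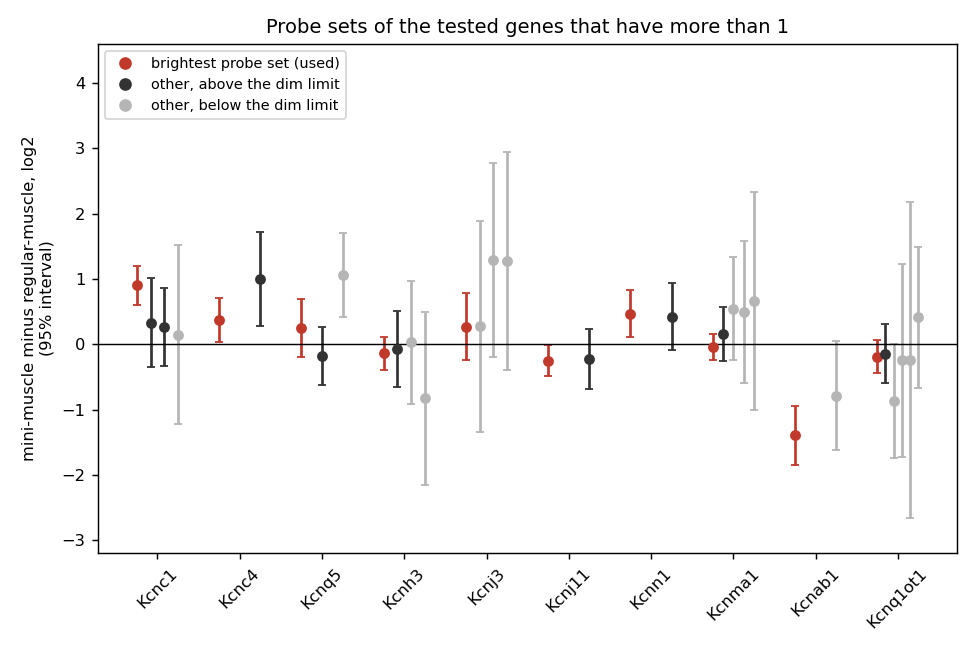
Difference mini-muscle minus regular-muscle (y axis, log2) with its 95% interval for every probe set of the 10 tested members that have more than 1. Red points are the probe sets used (the brightest of the gene), black points other probe sets above the dim limit and grey points those below it. For Kcnc1 the red point is at 0.91 and the black ones are at 0.33 and 0.26, with all 4 above 0. Both probe sets of Kcnn1 lie above 0 and both of Kcnab1 below it.

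The remaining auxiliary subunits were dim, and Kcne1l stood out among them. It encodes a single-span subunit of the Kcne family and lies on the X chromosome, and it is named here because of its values. Mini-muscle arrays measured 5.69 to 9.04 (median 8.40) and regular-muscle arrays 3.30 to 6.42 (median 4.49), and 1 mini-muscle array (replicate 2) lay below the highest regular-muscle array (replicate 6). The difference was 3.28 (95% interval 1.91 to 4.65). Tested without the dim filter over all 18194 genes, of which 12.1% were called, it had limma adjusted p = 0.0017 and was the only one of the 68 dim members to pass. Both group means (7.94 and 4.66) were below the dim limit, so the size is uncertain. Kcne4, known to inhibit Kcnq1 and Kcna channels, measured 8.77 to 9.68 in mini-muscle and 5.47 to 9.81 in regular muscle, a difference of 1.35 that did not pass (adjusted p = 0.11 without the dim filter). Kcne3, the partner of Kcnc4, was dim at 5.80 ± 0.88 and 4.90 ± 2.14.

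The 68 dim members had means between 3.73 and 8.44 and a median difference of 0.00. Of these, 7 were higher by at least 1 log2 unit (Kcne1l, Kcnd2, Kcnj14, Kcnmb4os2, Kcne4, Kcnmb4os1 and Kcnj2) and 0 lower by as much. For none of the 68 were the groups free of overlap. The shares over all dim genes were not counted, so these numbers are not read as a trait of potassium channel genes. The median SD within groups was 1.04 over the dim members and 0.27 over the tested ones, so that a 2-fold difference is about as large as the spread between arrays in the first. Kcnd2, a pore of fast inactivating A-type channels, differed by 1.87 (limma adjusted p = 0.057 without the dim filter). Its other probe sets, dimmer still, gave 0.40, -0.23 and -0.03. Among the non-coding RNAs, Kcnq1ot1, the imprinted transcript that runs antisense through Kcnq1, was tested and differed by -0.19 (95% interval -0.42 to 0.05, limma adjusted p = 0.24).

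Of 20 listed auxiliary proteins and regulators of potassium channels that are not named Kcn, 14 were measured and 9 tested. Of the 9, 1 rose and 2 fell (median 0.09), beside 14.9% of all genes called higher and 11.8% lower, so the number called is near the background. Akap9, the scaffold that brings kinases to Kcnq1 channels, rose by 0.46 (SE 0.09, limma adjusted p = 5.1e-04), at 12.56 ± 0.12 against 12.10 ± 0.13. Dlg1, a scaffold that clusters Kcna and Kcnj channels, fell by 0.54 (SE 0.09, adjusted p = 2.7e-04), although its second probe set gave 0.01. With the mean of all its probe sets the difference was -0.51 and the call was lost (limma adjusted p = 0.10). Lrrc38, a gamma subunit of the Kcnma1 channel, was 1.32-fold lower (log2 -0.40, SE 0.12, adjusted p = 0.022), a call lost without mini-muscle replicate 1 or regular-muscle replicate 5 (adjusted p = 0.055 and 0.054).

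Of 19 listed other genes of fibre excitability, 12 were measured and 10 tested. Of the 10, 3 rose and 0 fell (median 0.13), and 3 of 10 is near the 26.7% of all genes called. The 3 were Ank2, an ankyrin that anchors channels and pumps, at 12.01 ± 0.16 against 11.09 ± 0.19 (1.89-fold higher, limma adjusted p = 4.3e-06), the sodium pump subunit Atp1b1 (log2 0.87, adjusted p = 1.6e-05) and the voltage sensor of contraction Cacna1s (log2 0.45, adjusted p = 0.0011). The brighter probe sets of Ank2 both gave 0.92, and 4 of Atp1b1 gave 0.69 to 0.87. The muscle chloride channel Clcn1, which carries most of the resting conductance, differed by 0.01 (95% interval -0.23 to 0.25, adjusted p = 0.96).

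The arrays carried the skeletal muscle markers they should: all 12 listed were tested, with list means of 16.46 to 16.79. Within that list 4 rose and 3 fell, beside 14.9% of all genes called higher and 11.8% lower. The slow-fibre genes Myh7 (0.99) and Tnnt1 (0.95) rose, and so did the fast-fibre gene Myh1 (0.29) and Ryr1 (0.25). The fast-fibre genes Myh4 (-1.33), Actn3 (-0.36) and Tnnt3 (-0.29) fell. Myh2, also a fast-fibre gene, differed by 0.15 without passing (limma adjusted p = 0.32), so the fast-fibre genes did not all move 1 way. The part of fibre makeup in the 4 channel genes' differences was not tested. Some markers of other cells changed as well, and since the tissue is bulk muscle, fewer cells of a type and less RNA per cell cannot be told apart. Of 9 fibroblast and matrix markers 6 fell and 0 rose, with list means of at most 11.35 in mini-muscle and at least 11.49 in regular muscle. Among 6 tested macrophage and leukocyte markers 4 fell (9.12 to 9.69 against 9.82 to 10.34), and 4 others were dim. Of all genes tested, 11.8% were called lower. The fibroblast and macrophage lists moved in the direction of Kcnab1, and their part in its fall was not tested. Smooth muscle and pericyte markers gave 2 rises among 9 tested (Smtn and Rgs5, list median 0.19) and endothelial markers 1 among 9 (Pecam1, list median 0.08), numbers near the 14.9% of all genes called higher. List means overlapped between the groups for both, at 10.97 to 11.33 in mini-muscle against 10.68 to 11.13 for the first and 10.06 to 10.50 against 9.85 to 10.50 for the second. Satellite cell markers gave 1 rise of 2 tested (Itga7, list means 10.22 to 10.82 against 9.80 to 10.37), beside the same 14.9%, and 4 others were dim. Of 2 tested adipocyte markers Fabp4 rose (0.31) and Adipoq differed by -0.41 without passing (list means 12.66 to 13.53 against 12.89 to 13.63). The part of these cells in the rises of Kcnc1, Kcnk2 and Kcnn1 was not tested. The 6 Schwann cell and nerve markers tested gave 0 calls (list means 9.90 to 11.05 against 9.95 to 10.96), and all 3 measured erythroid markers were dim. No listed marker was at 0, since all deposited values are above 0.

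Across the tested genes, arrays of a group correlated at 0.954 to 0.974 and arrays of different groups at 0.924 to 0.948 (Pearson, log2), and no array pair held identical values. Mini-muscle replicate 2 and regular-muscle replicate 1 had the highest median intensities, 275.2 and 274.4, against 211.9 to 250.4 on the other 10. Without both, Kcnc1 (0.83), Kcnk2 (1.64) and Kcnab1 (-1.49) kept their calls, and Kcnn1 did not (0.42, limma adjusted p = 0.12).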

How the data were processed

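Per the submitters' processing notes, the authors made the deposited linear intensities with MAS5. MAS5 gives 1 signal per probe set and brings all arrays to 1 target level; the mean after leaving out the lowest and highest 2% was 800.0 on every array. The labels state no version, settings or detection calls. Of 45101 probe sets, 34958 had 1 gene symbol, 932 several and 9211 none. All 84 members matched RefSeq (GRCm38.p6) by gene identifier.

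The log2 of each deposited intensity was used, with nothing added. The brightest probe set of each gene was used, dim genes were left out, and groups were compared with limma 3.58.1 in R 4.3.3 (lmFit, eBayes with an intensity trend, two-sided, Benjamini-Hochberg). Exact permutation tests used all 924 assignments, with smallest p 0.0022. The fit was tested on simulated data. Each array holds a different animal, and replicate numbers only name arrays. Precision is limited by the number of arrays.

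Members and lists were chosen with earlier results of these data known. Named were all tested members, a fixed set known from muscle and called partner genes. Kcne1l, Kcne4, Kcnd2, Kcnab2, Kcnab3 and the other dim genes differing by at least 1 were named after their values were seen, as were uncalled partners.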

Additional observations from a re-analysis of the deposited data

Results flagged for a closer look

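The check covered the tested members, the dim genes of the fixed set, Kcne1l, Kcne4 and the called partner genes, each in both groups. Other genes named above were not checked. Of these 58 groups of 6 arrays, 3 held an array set apart from the other 5 by more than 0.625 of the group's range. By chance about 1 in 20 would. Regular-muscle replicate 4 was low for Kcna7, at 12.71 against 13.20 to 13.40 on the others. Regular-muscle replicate 5 was low for Kcnk5, at 4.34 against 6.32 to 7.21, in a dim probe set. Mini-muscle replicate 3 was low for Akap9, at 12.33 against 12.57 to 12.69.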

How the results depend on the processing

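The 16 tested members and 6 partner genes gave 496 values under 11 alternatives and with each of the 12 arrays left out. Of these, 469 kept direction and side of the threshold, 21 lost a call (14 of them Kcnn1), 3 gained one and 3 reversed. The reversals were Kcnma1 with the mean of all probe sets (0.36), and Kcnj8 without regular-muscle replicate 5 (0.042, with a range of -0.22 to 0.042 over single arrays left out) and without the 2 arrays of highest median (0.045), an alternative chosen after seeing the data, as was the fit over all single-gene probe sets. Counts of members called were 3 higher and 1 lower. They were 1 and 0 over a brighter subset of genes (a higher dim limit), where 10 members were tested, and 1 higher with the mean of all probe sets. Leaving out 1 array gave 2 to 3 higher and 1 to 2 lower. Of the partner regulators, 0 rose with the mean of all probe sets (6 tested). The number lower was 1 in place of 2 with that mean, median centring, the exact permutation test and without the 2 arrays, and 1 to 2 with 1 array left out. Causes were not tested. No paired analysis was possible because the groups hold different mice of different lines. Dim signal limits 68 of the 84 members.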
